A study of Caenorhabditis elegans with 4 samples.

Results

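The regions described here are NHR-23 binding peaks in the centres of the 5 autosomes of Caenorhabditis elegans, I, II, III, IV and V. They were chosen by position alone, from a combined list of chromatin immunoprecipitation (ChIP-seq) peaks, and numbered 224 of the 928 peaks in that list. Each chromosome's span, taken as the highest coordinate that any of the lists reaches on it, was cut into 3 parts of equal length. A central peak has its midpoint in the middle part, the centre, and the 544 peaks in the outer parts of the same chromosomes are called flank peaks. The 160 peaks on chromosome X were left out. All positions are on WormBase WS180.

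The ChIP group and its input DNA group held 2 samples each, all from hermaphrodites at the second larval stage (L2) of the strain OP43 kept at 20 °C. Both groups carried the mutation unc-119(ed3) and the transgene wgIs43. It was introduced by bombardment and holds nhr-23 joined to TY1, EGFP and FLAG tags, beside a working unc-119. Tagged protein was pulled down with goat antibodies against GFP from extracts of whole larvae, so a peak cannot be assigned to a tissue. No ChIP from worms without the tag was analysed here, and read depth is unknown from the files. Separate peak lists were available for ChIP replicate 1 (48 peaks) and ChIP replicate 2 (918 peaks), and nothing states that they came from separate cultures.

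NHR-23 is a nuclear hormone receptor of the ROR family, transcription factors that bind DNA through zinc fingers. In C. elegans it is known for its role in the molting cycle of the epidermis, where larvae rebuild their cuticle. Autosomes of this worm have a known regional organisation: the centres recombine little and are rich in widely expressed genes, while the arms recombine more and hold more repeats and more heterochromatin. The centres and flanks compared here were cut by length alone, so they need not match those centres and arms. Neither genes nor sequences were assigned to the peaks here, because the gene table used here is on another genome build.

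Central peaks were fewer per Mb than flank ones on 4 of 5 chromosomes, and with the chromosomes pooled the deficit lay among the weaker calls. The centres held 8.18 peaks per Mb (exact Poisson 95% interval 7.15 to 9.33) and the flanks 9.94 per Mb (9.12 to 10.8), a ratio of 0.824. The 2 intervals overlapped, and central and flank intervals also overlapped on every single chromosome. Among the 464 peaks of the whole combined list with the smaller q-values, called better-ranked here, the centres held 123 and the flanks 246. Per Mb of span both densities were 4.49 (3.73 to 5.36 in the centres, 3.95 to 5.09 in the flanks), a ratio of 1. By chromosome this ratio ran from 0.585 on IV to 1.26 on III. Among the remaining, weaker-ranked peaks the centres held 101, or 3.69 per Mb (3.00 to 4.48), and the flanks 298, or 5.44 per Mb (4.84 to 6.10), a ratio of 0.678. These intervals cover counting error only and treat each peak as independent, and no difference between centres and flanks was tested. In replicate 1 alone the centres held 0.402 peaks per Mb (0.201 to 0.719) and the flanks 0.475 per Mb (0.31 to 0.696), and in replicate 2 alone 8.07 and 9.73 per Mb.

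**Figure D1:**
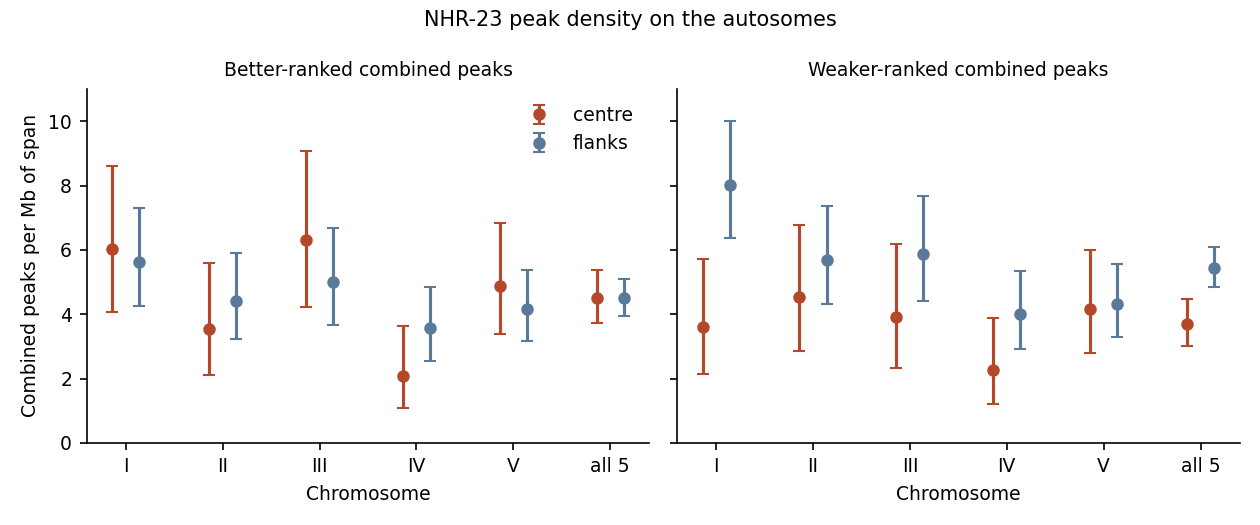
Combined peaks per Mb of span (y axis) for each autosome and for all 5 pooled (x axis), with centres in red and flanks in blue, for the better-ranked and the weaker-ranked combined peaks. Points are densities and bars exact Poisson 95% intervals. The pooled densities were the same among the better-ranked peaks (4.49 per Mb), while among the weaker-ranked ones the central value of 3.69 per Mb was below the flank value of 5.44 per Mb.

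In finer classes of rank, where 1 is the smallest q-value of the combined list, the centres were the sparser part only beyond rank 200. At ranks 1 to 50 there were 14 central peaks (0.511 per Mb) and 24 flank peaks (0.438 per Mb), and at ranks 51 to 100 there were 14 central and 28 flank peaks, equal per Mb. At ranks 101 to 200 the counts were 31 central and 46 flank peaks, a density ratio of 1.35. At ranks 201 to 400 the ratio was 0.937, and from rank 401 on it was 0.675, with 113 central and 335 flank peaks. The Poisson intervals of the central and flank densities overlapped in every class except the last.

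The chromosomes differed in how their centres were filled. Chromosome III had the densest centre, with 47 peaks or 10.2 per Mb, against 10.9 per Mb in its flanks. Chromosome I had 48 central peaks (9.63 per Mb, interval 7.10 to 12.8), against 13.6 per Mb in its flanks (11.4 to 16.1). Its left flank held 17.1 per Mb and its right flank 10.2 per Mb, the latter close to the centre. The better-ranked peaks of I were about as dense in the centre as in the flanks, at 6.02 per Mb against 5.62 per Mb. Its weaker-ranked peaks numbered 3.61 per Mb in the centre and 8.03 per Mb outside. Chromosome II had 41 central peaks, 8.06 per Mb against 10.1 per Mb outside. Its centre was the sparser part in both rank classes, with density ratios of 0.8 among better-ranked and 0.793 among weaker-ranked peaks. Chromosome V was the exception, with 63 central peaks or 9.05 per Mb, against 8.48 per Mb outside.

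Chromosome IV had the emptiest centre, in strong and weak calls alike. It held 25 peaks in 5.75 Mb, which is 4.35 per Mb (2.81 to 6.42), against 7.57 per Mb (6.06 to 9.33) in its flanks. The ratio of central to flank density was 0.585 among the better-ranked peaks and 0.565 among the weaker-ranked ones. That sparse centre nevertheless held the peak with the smallest q-value of all, described with the replicate calls.

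Within the centres, peaks were not spread evenly. With each centre cut into 6 equal parts, the pooled counts from left to right were 22, 29, 41, 42, 38 and 52 peaks. The rightmost parts thus held 11.4 peaks per Mb and the leftmost ones 4.82 per Mb. On I the counts swung between 15 peaks in the part just left of the middle and 2 peaks in the fifth part. On V the 3 right-hand parts held 16, 15 and 13 peaks and the 3 left-hand parts 3, 11 and 5. On IV the second part held a single peak.

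The boundaries of the centres were set by length alone, and peaks lay close to some of them on both sides. The 10 central peaks nearest to the 10 boundaries lay 3.16 to 330.2 kb inside them, with widths of 7 to 782 bp and ranks 24 to 888. The 10 nearest flank peaks lay 3.60 to 243 kb beyond, with widths of 41 to 545 bp and ranks 117 to 675. The closest pair flanked the right boundary on I, where the peak from 9962640 to 9962883 (rank 129) was inside and the peak from 9969368 to 9969671 (rank 409) outside. The first central peaks from the left on II and V, starting at 5297861 and 7075516, ranked 744 and 837.

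Central peaks were narrow intervals with few long ones. Their median width was 271 bp, with quartiles of 152 and 363 bp and a 95% interval of the median of 238 to 289 bp. The flank peaks had a median of 200 bp, quartiles of 96 and 370 bp and an interval of 190 to 224 bp. The central median was the wider one on all 5 autosomes, by 93.5 bp on I (286 against 192.5 bp), 76 bp on II, 77.5 bp on III, 28 bp on IV and 63.5 bp on V. On every single chromosome, however, the 95% intervals of the central and flank medians overlapped. With the chromosomes pooled, the left flanks had a median of 225 bp (195 to 250), whose interval overlapped the central one. The right flanks had a median of 186 bp (164 to 208). The central median was also the wider one in each replicate list. In replicate 1 the medians were 387 bp (252 to 518, 11 central peaks) and 350.5 bp (305 to 541, 26 flank peaks), with overlapping intervals. In replicate 2, which shares most of its calls with the combined list, they were 269 and 200 bp.

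Split by rank, central peaks had the wider median among the weaker-ranked peaks and not, when pooled, among the better-ranked ones. The weaker-ranked peaks had a central median of 170 bp (131 to 200) and a flank median of 128 bp (110 to 159), with overlapping intervals. The central one was the wider on all 5 chromosomes. The better-ranked peaks had a central median of 319 bp (290 to 350) and a flank median of 332.5 bp (304 to 370), also with overlapping intervals. The central one was still the wider on 2 of the 5 chromosomes, II and III. Central peaks had a median rank of 415 (349 to 493) and flank peaks of 499.75 (470.5 to 541), and rank tracked width: across the 224 central peaks the Spearman rho between width and −log10 q was 0.609. Both measures are outputs of 1 peak call, so this rho only describes the caller's output.

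The difference in width lay in the middle of the range rather than among the widest peaks. Peaks of 200 to 399 bp were 102 of the 224 central peaks (45.5%), with 52 between 200 and 299 bp and 50 between 300 and 399 bp. The class of 200 to 299 bp held 23.2% of central peaks (interval 17.9 to 29.3%) and 17.3% of flank peaks (14.2 to 20.7%), with overlapping intervals. The class of 300 to 399 bp held 22.3% of central peaks (interval 17 to 28.3%) and 13.1% of flank peaks (10.3 to 16.2%). Peaks of 500 bp or more were 12.1% of central and 12.3% of flank peaks. Very short calls, under 50 bp, were 23 of the 224 central peaks, or 10.3% (6.62 to 15%), against 91 of the 544 flank peaks, or 16.7% (13.7 to 20.1%); in the whole combined list the share was 13.3%. Chromosome I showed the widest split, with 2 such peaks among 48 in its centre and 28 among 136 outside, while on IV the order was the other way, with 3 of 25 against 8 of 87. The centres also held 2 peaks of 1 bp, both on III.

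**Figure D2:**
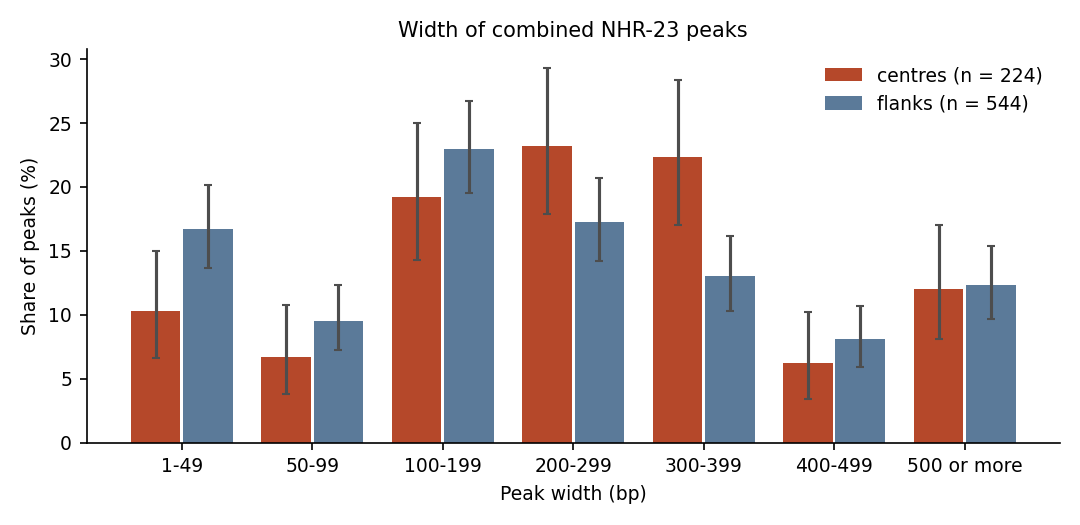
Share of combined peaks (y axis, percent) in each class of width (x axis, bp), for the 224 central peaks in red and the 544 flank peaks in blue, with exact binomial 95% intervals. Central peaks held the larger share at 200 to 399 bp and the smaller share under 200 bp, and both had about 12% at 500 bp or more.

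One region was far wider than the others. The central peaks covered 75388 bp, of which the domain on IV from 9606815 to 9620288 made up 13474 bp, or 17.9%. The other 223 peaks covered 61914 bp, and the next widest measured 1194 bp, on III from 7446685 to 7447878 (rank 293). The remaining 3 of the 5 widest measured 900 bp (I, 5316026 to 5316925, rank 90), 878 bp (I, 7474840 to 7475717, rank 139) and 820 bp (III, 8801437 to 8802256, rank 32). In replicate 1 the domain on IV made up 71.3% of the 11909 bp covered in the centres.

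Neighbouring central peaks lay a median of 65.3 kb apart, edge to edge (quartiles 17.9 and 153 kb, interval of the median 51.6 to 82.6 kb, 219 gaps). The flank median was 59.2 kb (quartiles 11.3 and 136 kb, interval 47.6 to 66.6 kb, 534 gaps), so the intervals overlapped. The mean central gap was 120 kb, well above the median. Gaps under 2 kb were 27 of the 219 central gaps (12.3%, interval 8.28 to 17.4%) and 51 of the 534 flank gaps (9.55%, interval 7.19 to 12.4%). Gaps from 5 to under 10 kb were 5 of the central gaps (2.28%, interval 0.745 to 5.25%) and 31 of the flank gaps (5.81%, interval 3.98 to 8.14%). In the centres, therefore, 43 of the 48 gaps under 10 kb were under 5 kb.

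**Figure D3:**
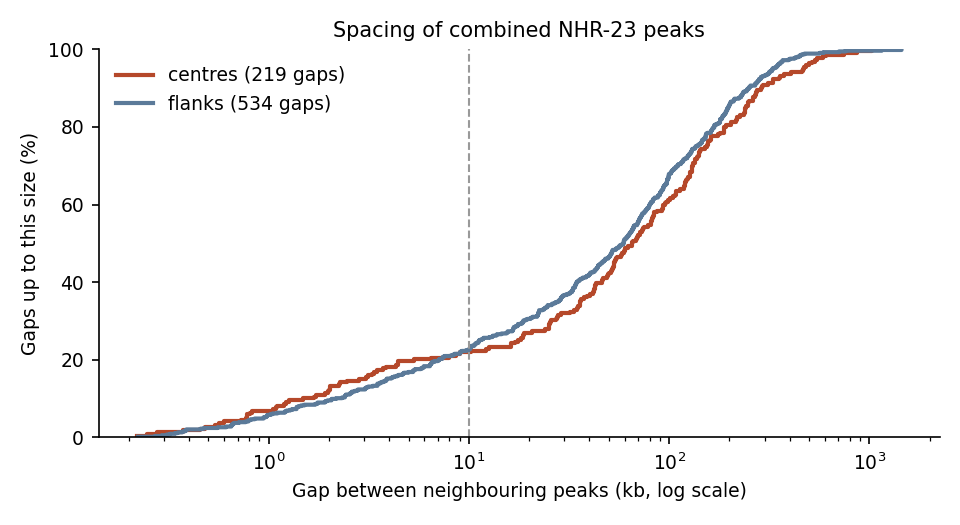
Cumulative share of gaps (y axis, percent) up to a given size (x axis, kb, log scale) between neighbouring combined peaks of the same part of a chromosome, for 219 gaps in the centres (red) and 534 in the flanks (blue). The dashed line marks 10 kb, below which 21.9% of central and 22.7% of flank gaps fell.

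Spacing differed between the centres. The median gap was 139 kb on IV, 77.6 kb on III, 76.1 kb on II, 52.4 kb on V and 49.5 kb on I. In the flanks it was 78.1 kb on IV, 42.1 kb on III, 47.6 kb on II, 86 kb on V and 44.6 kb on I. The centres thus had the longer median gap on 4 of the 5 chromosomes and the shorter one on V. The longest stretch without a combined peak in any centre ran on I from 7955184 to 8985737, 1031 kb or 20.7% of that centre, and ended at the peak of rank 3. On IV it ran from 6975128 to 7845664 (871 kb), on V from 7075717 to 7686236 (611 kb), on III from 6464374 to 6978841 (514 kb) and on II from 6348779 to 6821081 (472 kb). The empty stretch on II ended at the largest group of peaks in the centres.

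A run was defined as neighbouring peaks with gaps under 10 kb. In these terms 75 of the 224 central peaks stood in 27 runs (33.5%, interval 27.3 to 40.1%), against 202 of the 544 flank peaks in 81 runs (37.1%), and 149 central peaks stood alone. With a limit of 5 kb the order turned, with 30.4% of central and 28.5% of flank peaks in runs. The range between chromosomes was wide. On I 24 of the 48 central peaks were in runs (50%), against 33.8% outside. On IV only 2 of the 25 central peaks were (8%), against 41.4% outside. Central peaks in runs had a median width of 301 bp and a median rank of 323, and those standing alone had 238 bp and 458.5.

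There were 6 central runs of 4 or more peaks, holding 27 peaks (12.1%), and 10 flank ones holding 46 (8.46%). The largest, on II from 6821081 to 6844809, spanned 23729 bp and 6 peaks, 442, 335, 345, 531, 301 and 13 bp wide, with a best rank of 187. On V a run of 5 peaks spanned 6544 bp from 10715918 to 10722461, had its best rank at 162, and included the shortest gap of any central pair, 220 bp. Chromosome V had runs of 4 at 8660537 to 8668441 (best rank 73) and at 12295586 to 12303702 (best rank 170.5), III had one at 8573871 to 8578605 (best rank 70) and I had one at 9375323 to 9383079 (best rank 18). The run on I had the widest peak of these 6 runs, 776 bp. All 27 peaks in these runs overlapped a replicate 2 peak and none overlapped a replicate 1 peak, where 95.2% and 4.42% of the whole combined list did so.

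Support from the replicates was uneven. A replicate 2 peak overlapped 211 of the 224 central peaks, or 94.2% (interval 90.3 to 96.9%), against 514 of the 544 flank peaks, or 94.5% (92.2 to 96.2%), and 95.2% of the whole list. A replicate 1 peak overlapped 10 central peaks, or 4.46% (2.16 to 8.06%), against 22 flank peaks, or 4.04% (2.55 to 6.06%), and 4.42% of the whole list. All 10 were also in replicate 2. Support by either replicate in the centres was therefore near that of the whole list. Of the 211 pairs with replicate 2, 154 carried the identical q-value and 130 also the same start and end, so the combined and replicate 2 lists are not independent.

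Seen from the replicate lists, 11 of the 48 replicate 1 peaks (22.9%) and 221 of the 918 replicate 2 peaks (24.1%) lay in the centres. Of the 11, 10 overlapped replicate 2 (90.9%, interval 58.7 to 99.8%), against 22 of the 26 in the flanks (84.6%, interval 65.1 to 95.6%). The exception lay on IV from 11070896 to 11071282, ranked 8 in replicate 1 with q = 5.05e-08. It stood 11538 bp from the nearest combined peak, which is itself 1 of the 10 found in both replicates. With that neighbour and the next one, 3 of the 11 replicate 1 calls fell within 48.4 kb on IV.

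Central peaks found in both replicates included the 5 of smallest q-value in the combined list. For each of the 10 such peaks, however, that list gave the replicate 2 q-value, digit for digit. Their ranks thus reflect replicate 2 and are not evidence pooled over the replicates. Of the 14 central peaks in the first 50 ranks, those 5 were found in both (35.7%, interval 12.8 to 64.9%), and the next 50 ranks had none among 14. The following 100 ranks had 3 among 31 central peaks, ranks 201 to 400 had 1 among 52, and the rest of the list had 1 among 113. In the flanks the first class held 13 of 24 (54.2%, interval 32.8 to 74.4%). The later flank classes held 1 of 28, 3 of 46, 4 of 111 and 1 of 335, so the fall with rank was not particular to the centres. The 10 central peaks in both had a median width of 461.5 bp and a median rank of 61. The 201 central peaks found in replicate 2 alone had 271 bp and 395.5. The flanks had the same order, with 460 bp and 33.5 in both against 200 bp and 499.75 in replicate 2 alone. Of the 10 central peaks, chromosomes IV and V held 3 each, I and III 2 each, and II none.

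**Figure D4:**
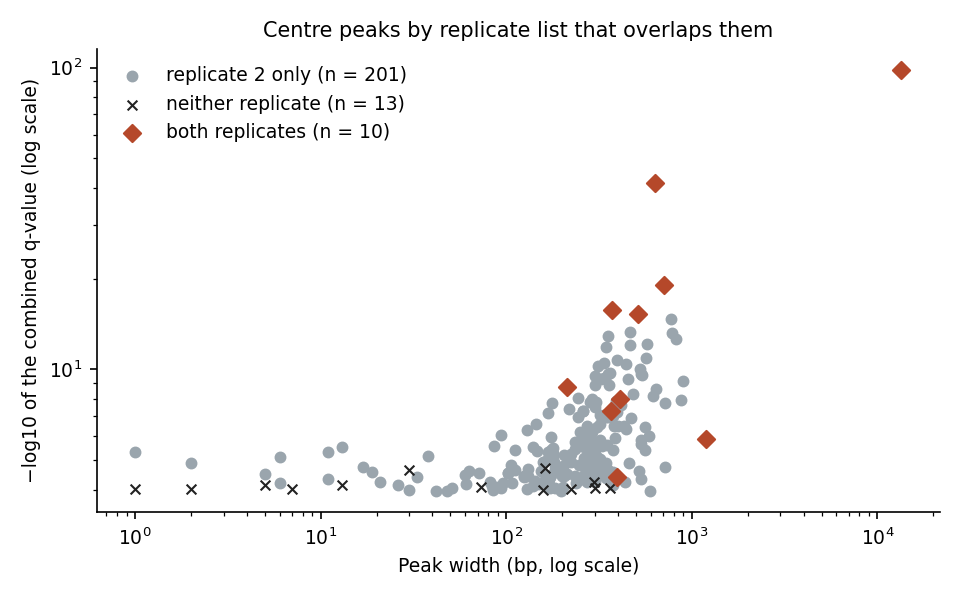
Width (x axis, bp, log scale) and −log10 of the combined q-value (y axis, log scale) of the 224 central peaks, by the replicate list that overlaps them. The 10 peaks in both replicates (red) lie at 212 bp or wider and the 13 in neither (black crosses) at 363 bp or narrower.

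Among these 5 peaks, the domain on IV had q = 4.42e-39 in replicate 1 (rank 1) and 1.08e-98 in replicate 2 (rank 1). Replicate 1 placed it from 9611619 to 9620108, 63.1% of the replicate 2 interval, so that its left part was called only in replicate 2. The peak on I from 8985737 to 8986370 had q = 5.81e-11 in replicate 1 and 2.87e-42 in replicate 2, where it ranked 3. The peak on V from 9274131 to 9274836 had q = 2.83e-06 in replicate 1, where it ranked 30 of 48, and 9.11e-20 in replicate 2. The peak spanning 9332535 to 9332905 on I had q = 1.66e-07 in replicate 1 and 1.89e-16 in replicate 2. The peak spanning 7300050 to 7300560 on III had q = 1.26e-07 in replicate 1 and 4.98e-16 in replicate 2.

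The next 7 of the first 12 central peaks had no replicate 1 call. Chromosome I held that of rank 18 (9381226 to 9382001, within the run of 4) and that of rank 24 (5312783 to 5313564). Chromosome III held rank 23 (5502917 to 5503383) and rank 32 (8801437 to 8802256), and II held rank 30 (9064386 to 9064740). Chromosome V held rank 36 (11615863 to 11616434) and rank 38 (13081123 to 13081586). The one of rank 36 was 572 bp wide with q = 6.98e-13 in the combined list, against 365 bp and q = 4.24e-10 in replicate 2, so here the combined call was not a copy. The peak on III at rank 23 went the other way, since its combined q-value of 5.13e-14 was larger than its replicate 2 q-value of 6.12e-15. Of these 7 peaks, 6 stood in runs, and 3 of the 5 called in both replicates stood alone. Among all central peaks 33.5% stood in runs, and a link between runs and replicate calls was not tested.

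The other 5 central peaks found in both replicates were weaker calls in the combined list and in replicate 2. On IV, those from 11119137 to 11119348 and from 11082821 to 11083232 had replicate 1 q-values of 2.81e-06 and 1.64e-05 and replicate 2 q-values of 1.89e-09 and 1.06e-08. The peak on V from 8592779 to 8593144 had q = 7.42e-06 in replicate 1 and 5.44e-08 in replicate 2. The order turned on III from 7446685 to 7447878, with q = 8.65e-07 in replicate 1 and 1.34e-06 in replicate 2. It also turned on V from 12509901 to 12510295, with q = 4.06e-07 in replicate 1 and 4.1e-05 in replicate 2. The peak on V thus ranked 18 of 48 in replicate 1 and 668 of 918 in replicate 2.

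The replicate intervals nested at all 10 regions. Each replicate 1 interval lay inside its replicate 2 interval, which was 1.01 to 2.8 times as wide (median 1.36). The midpoints differed by less than 100 bp at 8 regions, with a median of 19 bp over the 10. The exceptions were III at rank 293, where the replicate 1 call covered 43.4% of the replicate 2 interval with its midpoint 244 bp to the left, and the domain on IV, where its midpoint was 2310.5 bp to the right.

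**Figure D5:**
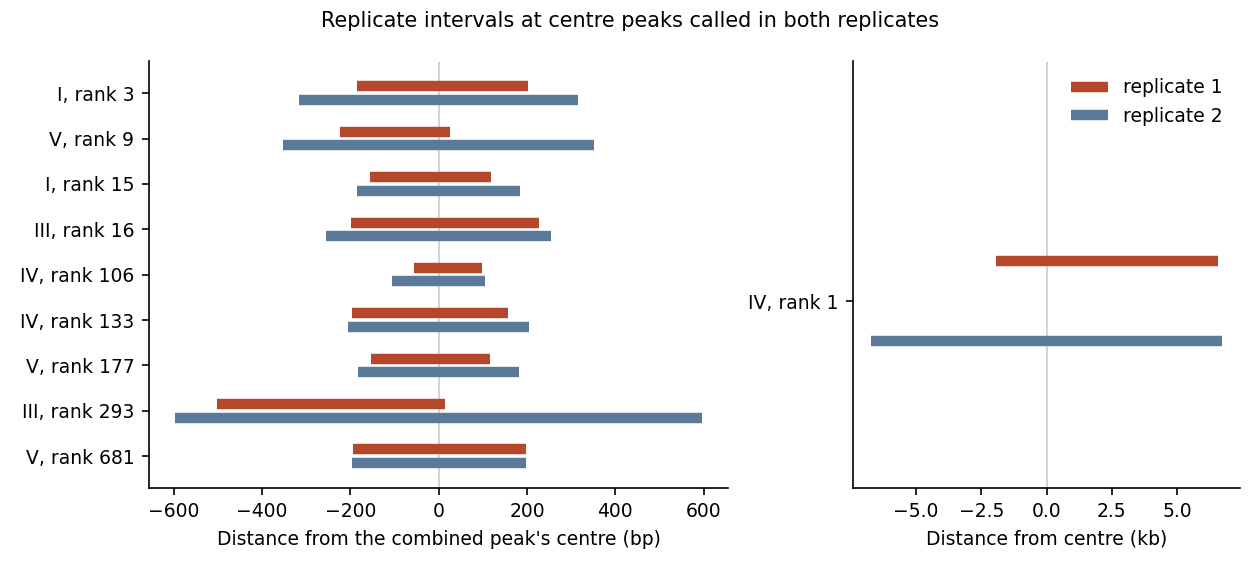
Called intervals of replicate 1 (red) and replicate 2 (blue) at the 10 central peaks found in both, drawn as distance from the centre of the combined peak (x axis, bp on the left, kb on the right), in order of combined rank (y axis). The replicate 1 bar lies inside the replicate 2 bar in every row and takes up the smallest share of it at V rank 9 (35.7%) and III rank 293 (43.4%).

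The 13 central peaks found in neither replicate list were weak calls of mixed width. They were 5.80% of central peaks (interval 3.13 to 9.72%), against 5.51% of flank peaks and 4.85% of the whole list. Their widths ran from 1 to 363 bp with a median of 73 bp, and 6 of them were under 50 bp. Their ranks ran from 545.5 to 904. The centre of II held 5 of them, or 12.2% of its peaks, against 1.94% in its flanks. On III the centre held 4 (8.51%, flanks 7%) and on V 3 (4.76%, flanks 4.24%). The centre of I held 1 (2.08%, flanks 9.56%) and that of IV none (flanks 3.45%). Central and flank intervals of this share overlapped on every chromosome. The 5 on II included the widest of the 13, from 8128341 to 8128703 (363 bp, rank 868.5). In the opposite direction, 10 of the 221 central replicate 2 peaks (4.52%) were left out of the combined list. They had a median width of 107.5 bp and a median replicate 2 rank of 783.5. The matching share outside the centres is not given here, so this loss cannot be called particular to the centres.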

How the data were processed

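ChIP-seq peaks from 2 ChIP samples were analysed, with groups and replicate numbers from the sample titles. Peaks were called with PeakSeq, a caller that scores ChIP against input, on WormBase WS180, per the file headers. The authors deposited 1 q-value for each peak, which served here for ranking, filtering and description. The aligner, caller settings, read depth and the making of the combined list were not given in the sources used here. No 2 peaks of a list overlapped.

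Central peaks were taken by midpoint from the spans described. Peaks shared at least 1 bp to count as overlapping. Gaps are the bases between neighbouring peaks of the same part. Shares carry exact binomial (Clopper-Pearson), densities exact Poisson and medians order-statistic 95% intervals, for counting error alone. With 2 replicate lists, an exact two-sided permutation test of the difference between centre and flank cannot go below p = 0.5, so none was run. The regions named are the 12 central peaks of smallest q-value, all those overlapping replicate 1, the 5 widest, runs of 4 or more, longest gaps and boundary peaks; the outlying replicate 1 call, the shortest gap and the widest unsupported peak were added once values had been seen. The regions and measures were chosen with earlier results of these data known. Overlap and gap counting was tested on simulated data. Alternatives changed the overlap rule, run limit, widths, boundaries and lists. Python 3.11.15, numpy 2.4.6, scipy 1.17.1 and matplotlib 3.10.9 were used.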

Additional observations from a re-analysis of the deposited data

How the results depend on the processing

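No paired analysis was possible because the input samples that share replicate numbers with the ChIP samples had no separate peak list among the files analysed. Over 58 alternative values, 45 stayed within the 95% interval of the value reported and 13 moved outside it. Some of the 45 could hardly move, so this tally does not measure robustness. Leaving out replicate 1 gives the replicate 2 list, which shares most of its calls with the combined one. It cannot change the share without support, because each central peak with a replicate 1 call also had a replicate 2 call. Among the 464 better-ranked combined peaks, which are fewer by construction, central density was 4.49 per Mb, the overlap with replicate 2 was 100%, that with neither 0%, the median width 319 bp, the share under 50 bp 4.07% and the median gap 127 kb. With runs defined by gaps under 20 kb, 40.6% of central peaks were in runs (48.7% of flank ones), and with gaps under 5 kb 30.4% (28.5% of flank ones), so the order of centre and flank depends on that limit. Leaving out a replicate gave 0.402 to 8.07 peaks per Mb, median widths of 269 to 387 bp, 0 to 9.95% under 50 bp, median gaps of 65.2 to 346 kb, 0 to 32.6% in runs and 5.80 to 95.5% without support, the extreme in each case being that without replicate 2, which leaves 11 central peaks. Every density, width and gap therefore rests on replicate 2. Without read depth, absence from the replicate 1 list shows only that a region was not called there.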
